A study of Mus musculus with 2 samples.

Results

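Brg1, encoded by Smarca4, is the motor ATPase of the BAF (SWI/SNF) complexes, which slide and evict nucleosomes. The question here is what sets apart the longest stretches of DNA on which a SICER analysis found it enriched in mouse medulloblastoma, and which genes those stretches reach. The wide islands were the regions of the deposited ChIP-seq island list that spanned 4000 bp or more and did not exceed a cap on read density, which left 507 of 5727 islands. They were chosen by their measured width and reads per 200 bp, so both are given below as a description. They are set against the 5189 narrower islands under the same cap, the densest of which held 12.3 reads per 200 bp. The cap removed the 31 densest islands, of which 11 were 4 kb or wider.

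The tumour came from mice of the genotype CAG-CreER, Rosa26-SmoM2, in which an oncogenic Smoothened switches on Hedgehog signalling and medulloblastoma forms spontaneously. CAG is a promoter active in most cell types. How old the animals were and how many tumours were pooled is not given in the sources at hand. The library was precipitated with the antibody J1, which the labels give as Brg1/Brm, so an island can hold Brg1 or its paralogue Brm (Smarca2). There was 1 ChIP library from the primary tumour. The matching input library is not analysed here. No error between animals can be given, no test was run, and the intervals below cover counting error only.

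Remodellers of this family are found at promoters and at distal enhancers, and broad stretches of occupancy have been described at genes that set cell identity and at very active genes. The medulloblastoma of the Hedgehog type grows from granule neuron progenitors of the cerebellum, cells marked by the transcription factors Atoh1, Barhl1, Zic and Nfi and kept dividing by Sonic hedgehog. SICER joins neighbouring enriched windows into islands, so width depends on its settings too.

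The 6 sequences below are the 250 bases before the transcription start of genes whose start a wide island overlapped. They are shown because promoters under wide islands differed among themselves in a way described further on. Rnd3 (a small GTPase), Fscn1 (an actin-bundling protein) and Gadd45g (a stress-response gene) carry a TATAAA close to the start. Map3k1 (a MAP kinase kinase kinase) and Ptch1 (the Hedgehog receptor) are rich in G and C and carry the GC box GGGCGG, and Barhl1 (a homeobox factor of the granule lineage) has neither feature. Sequences are from RefSeq on GRCm38.p6, which corresponds to mm10, and read 5′ to 3′ on the strand of the gene. Capitals mark TATAAA and GGGCGG on either strand.
Rnd3 upstream, chr2:51149112-51149361, minus strand: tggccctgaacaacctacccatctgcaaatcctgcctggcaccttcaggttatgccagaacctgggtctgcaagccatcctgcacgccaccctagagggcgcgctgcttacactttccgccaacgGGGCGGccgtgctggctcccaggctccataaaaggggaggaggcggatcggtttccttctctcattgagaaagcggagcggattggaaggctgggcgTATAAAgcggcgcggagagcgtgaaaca
Fscn1 upstream, chr5:142960105-142960354, plus strand: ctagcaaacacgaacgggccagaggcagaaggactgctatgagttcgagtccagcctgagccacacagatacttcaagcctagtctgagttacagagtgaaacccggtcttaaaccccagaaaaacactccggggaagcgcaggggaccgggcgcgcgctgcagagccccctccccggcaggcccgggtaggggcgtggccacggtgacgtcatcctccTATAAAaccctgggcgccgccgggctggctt
Gadd45g upstream, chr13:51846425-51846674, plus strand: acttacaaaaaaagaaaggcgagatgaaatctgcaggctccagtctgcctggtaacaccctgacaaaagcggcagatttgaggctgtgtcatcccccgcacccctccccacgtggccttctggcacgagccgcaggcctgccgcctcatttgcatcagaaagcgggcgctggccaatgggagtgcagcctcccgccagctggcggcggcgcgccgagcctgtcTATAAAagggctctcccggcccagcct
Map3k1 upstream, chr13:111808994-111809243, minus strand: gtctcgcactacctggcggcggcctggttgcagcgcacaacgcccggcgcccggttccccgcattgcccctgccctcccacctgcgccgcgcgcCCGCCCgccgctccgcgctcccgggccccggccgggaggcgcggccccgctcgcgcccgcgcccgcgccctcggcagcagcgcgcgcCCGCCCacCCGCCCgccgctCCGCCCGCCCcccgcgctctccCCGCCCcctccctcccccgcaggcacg
Ptch1 upstream, chr13:63565736-63565985, minus strand: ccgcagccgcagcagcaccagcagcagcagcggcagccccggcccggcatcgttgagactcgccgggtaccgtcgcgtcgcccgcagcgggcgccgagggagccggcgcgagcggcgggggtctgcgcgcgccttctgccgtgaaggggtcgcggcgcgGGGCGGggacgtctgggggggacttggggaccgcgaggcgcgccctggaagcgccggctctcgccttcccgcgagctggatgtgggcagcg
Barhl1 upstream, chr2:28916669-28916918, minus strand: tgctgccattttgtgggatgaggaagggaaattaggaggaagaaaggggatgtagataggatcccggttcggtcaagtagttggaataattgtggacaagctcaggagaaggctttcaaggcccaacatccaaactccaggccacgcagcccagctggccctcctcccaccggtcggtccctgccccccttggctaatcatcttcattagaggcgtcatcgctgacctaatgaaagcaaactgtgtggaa
The TATAAA began 28 bases before the start in Rnd3, 31 in Fscn1 and 27 in Gadd45g. The 250 bases held 60% G and C and 16 CpG in Rnd3, 62.4% and 18 in Fscn1, 62% and 16 in Gadd45g, 85.2% and 45 in Map3k1, 78.4% and 41 in Ptch1, and 52.8% and 7 in Barhl1. GGGCGG, counted on both strands, occurred 6 times in Map3k1 and 1 time each in Ptch1 and Rnd3.

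Wide islands spanned a median of 4600 bp (interquartile range 4200 to 5400, highest 15800), against 2200 bp (1600 to 2800) for narrower islands. They held a median of 133 reads (116.5 to 159, highest 762), against 66 (55 to 80) in narrower islands. They made up 8.85% of all islands, 18.01% of the covered sequence (2.56 Mb) and 15.9% of the reads in the list. Most were near the width limit: 316 were under 5000 bp, 108 were 5000 to 5800 bp and 83 were 6000 bp or more, with 11 of 10000 bp or more. The width limit fell within a continuous range. The 95 islands of exactly 4000 bp held 79 to 225 reads (median 114), and the 126 islands of 3800 bp just below it held 75 to 151 (median 107).

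Read density had a median of 5.67 reads per 200 bp in wide islands (5.20 to 6.27) and 6.33 in narrower ones (5.67 to 7.14). Across islands, which share a library and are not independent, the Spearman correlation of density with width was 0.056 among the wide and -0.687 among the narrower. Both values were used by the rule, so nothing is read from this. Only 11 wide islands were above 8 reads per 200 bp. Just inside the cap were islands of 11.98, 11.25 and 9.96 reads per 200 bp, on chromosomes 8, 11 and X. Just outside it were islands of 12.6, 13.04 and 13.7, on chromosomes 17, 8 and X.

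**Figure D1:**
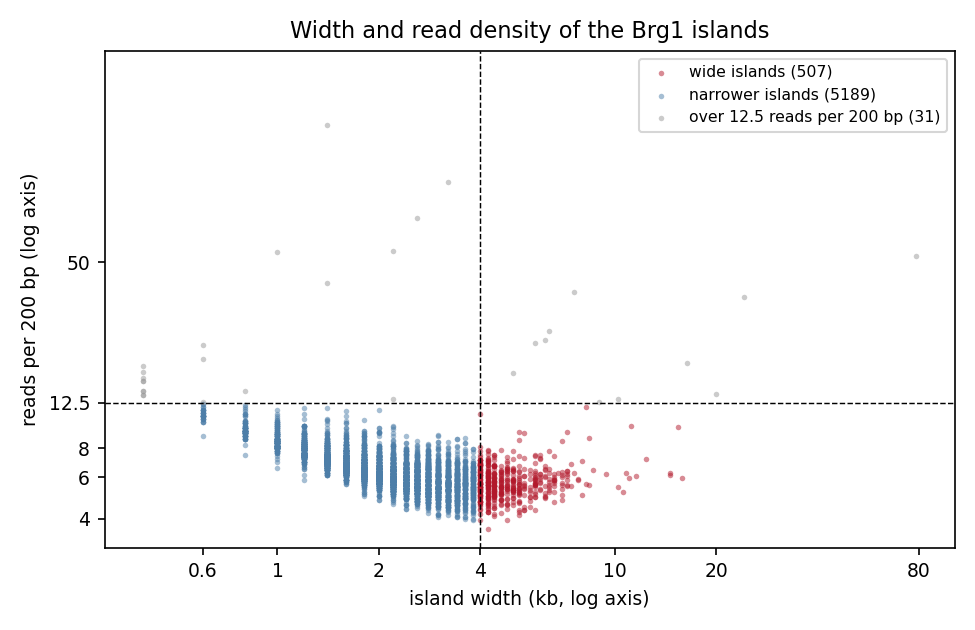
Width (kb) and read density (reads per 200 bp), both on log axes, of all 5727 islands, with the width limit of 4 kb and the density cap as dashed lines. The 507 wide islands lie right of the width limit and the 5189 narrower ones left of it, and the limit falls within a continuous cloud.

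The wide islands were centred less often on gene ends and more often inside genes. The midpoint was at most 1 kb away from a protein-coding gene's end in 88 of 507 wide islands (17.4%, Wilson 95% interval 14.3 to 20.9) and in 1321 of 5189 narrower islands (25.5%, 24.3 to 26.7). The share was 24.7% over all islands under the cap. It lay further inside a protein-coding gene in 275 wide islands (54.2%, 49.9 to 58.5) and 2255 narrower ones (43.5%, 42.1 to 44.8), against 44.4% over all. It was over 10 kb from any protein-coding gene in 113 wide islands (22.3%) and 1284 narrower ones (24.7%), against 24.5% over all. The intervals of these overlapped. Of these, 34 wide (30.1%) and 347 narrower islands (27.0%) had it inside a lncRNA gene, against 27.3% over all. The remaining 31 wide islands (6.11%) and 329 narrower ones (6.34%), against 6.32% over all, had it outside a protein-coding gene but within 10 kb of one.

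The measure decides the direction at gene ends. A midpoint within a fixed distance is harder to meet for a wide island that spreads from a start, while any contact is easier to meet. Some part lay within 1 kb of a gene end in 200 wide islands (39.4%, 35.3 to 43.8) and 1652 narrower ones (31.8%, 30.6 to 33.1), against 32.5% over all. Per length, wide islands overlapped the starts of 6.88 genes per 100 kb of island and narrower ones those of 11.97. This rate depends on width too: 138 of the 152 wide islands over a start covered that of 1 gene only, whatever their length.

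The shift appeared among the wide islands themselves. The midpoint lay at a gene end in 67 of 316 islands under 5 kb (21.2%), in 11 of 108 islands of 5.0 to 5.8 kb (10.2%) and in 10 of 83 islands of 6 kb or more (12.05%). Those of 3.2 to 3.8 kb, just under the limit, had 22.2%. The limit of 4 kb therefore marks no step in this share. The midpoint lay further inside a protein-coding gene in 51.5% of islands of 3.2 to 3.8 kb and 50.6% of those of 4.0 to 4.8 kb. That share was 62.0% at 5.0 to 5.8 kb and 57.8% at 6 kb or more, so it had no step at the limit either.

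**Figure D2:**
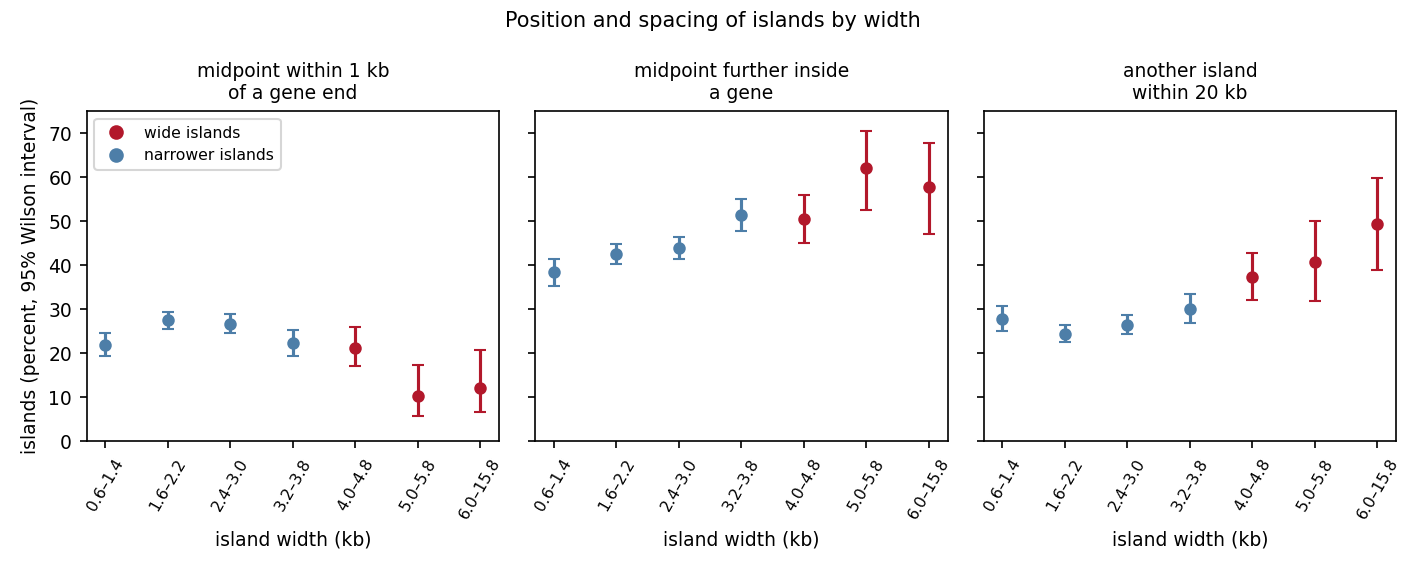
Share of islands (percent, with Wilson 95% intervals) by width class in kb, for a midpoint within 1 kb of a gene end, a midpoint further inside a gene and another island within 20 kb. The widest class has 12.05% at gene ends and 49.4% with a neighbouring island, and the class just under the 4 kb limit has 22.2% and 30.1%.

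Where an end was involved, it was mostly the 5′ end, at which transcription starts. Strand came from the RefSeq promoter table, which gave it for 17274 of 21631 protein-coding genes. It held no entry on chromosome 18, so the 26 wide islands there are left out of every result on starts. A start was overlapped by 152 of 481 wide islands (31.6%, 27.6 to 35.9) and 1214 of 4993 narrower ones (24.3%, 23.1 to 25.5), against 25.0% over all. The midpoint lay within 1 kb of a 5′ end in 58 wide and 986 narrower islands (12.1% and 19.7%, against 19.1% over all). It lay within 1 kb of a 3′ end in 15 wide and 97 narrower islands (3.12% and 1.94%, against 2.05% over all). These are the outermost ends of the annotated gene, while a listed start can lie inside it. The midpoint was within 1 kb of a listed start in 89 wide islands (18.5%, 15.29 to 22.22) and 1164 narrower ones (23.3%, 22.16 to 24.51). Over all it was 22.9%, and these intervals overlapped slightly.

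Wide islands at starts lay mainly downstream of the start. Among islands that overlapped exactly 1 listed start, the 104 wide ones extended a median of 3003 bp downstream (interquartile range 1981 to 3798) and 1759 bp upstream (830 to 2648). The 955 narrower ones extended 1221 bp downstream (800 to 1727) and 874 bp upstream (545 to 1340). The longer side lay downstream in 69 wide islands (66.3%, 56.8 to 74.7) and 594 narrower ones (62.2%, 59.1 to 65.2), so the lean was similar within the intervals. At 2 kb downstream of the start, 74.0% of the wide islands still covered the position, against 15.5% of the narrower ones. At 2 kb before the start these shares were 40.4% for wide and 7.23% for narrower islands. That wide islands reach further in total follows from the rule.

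Single genes showed the whole range. The island of Rnd3 ran 169 bp upstream and 8230 bp downstream of the start, and that of Junb, a subunit of the AP-1 transcription factor, ran 353 bp upstream and 5646 bp downstream, past the end of the gene. The island of Eef2, translation elongation factor 2, was nearly even, with 3375 bp upstream and 3224 bp downstream. That of Ptch1 lay inside the annotated gene, 2.77 kb from its nearest end, with 4957 bp upstream and 842 bp downstream of the listed internal start.

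**Figure D3:**
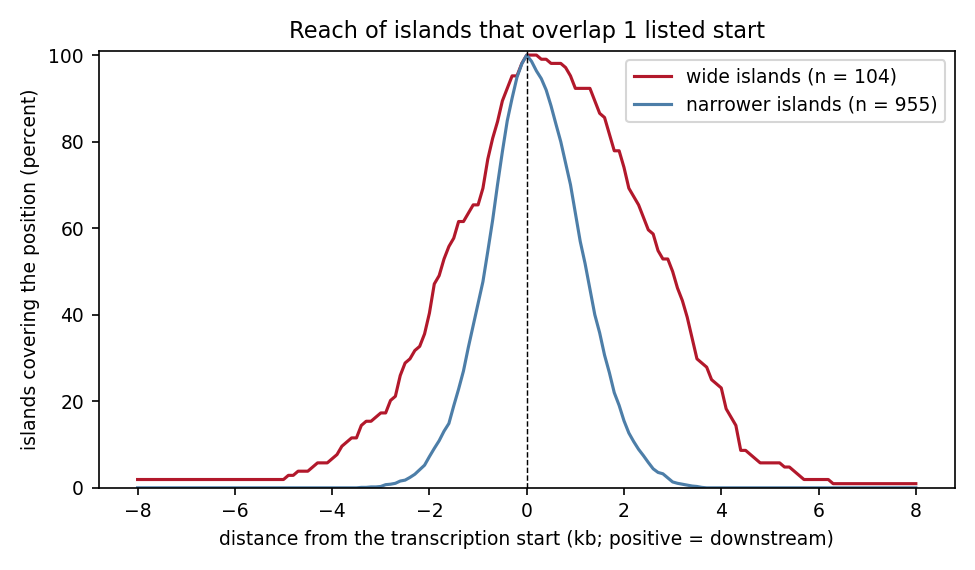
Share of islands (percent) that cover each position from 8 kb before to 8 kb after the transcription start, for the 104 wide and the 955 narrower islands over exactly 1 listed start. Both curves lean downstream, and 2 kb downstream the wide islands stand at 74.0% and the narrower ones at 15.5%.

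Inside genes the wide islands lay more towards the start than the narrower ones. Among islands away from gene ends this difference was small for the first 25% of the gene, with overlapping intervals. For the last 25% the share of wide islands was lower, but it rested on 16 of them and no interval was computed. Of 213 wide islands inside 1 gene of known strand, 97 lay in the first 25% of the length of the gene (45.5%, 39.0 to 52.2), against 518 of 1728 narrower ones (29.98%, 27.9 to 32.2). With islands that had no part within 5 kb of a gene end, chosen after seeing the data, the counts were 24 of 107 wide islands (22.4%, 15.6 to 31.2) and 255 of 1301 narrower ones (19.6%, 17.5 to 21.8). The last 25% held 28 wide (13.1%) and 409 narrower islands (23.7%) before this restriction, and 16 wide (14.95%) and 310 narrower islands (23.8%) after it. The median host gene of the islands away from ends was 215427 bp long for wide and 162665 bp for narrower islands.

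Many of the islands with the most reads were not at protein-coding gene ends. Of the 15 wide islands with the most reads, 2 lay within 5 kb of such an end and 6 overlapped a lncRNA gene. In 9 the midpoint was over 10 kb from any protein-coding gene. Of the 50 with the most reads, 20 lay within 5 kb of an end and 18 had their midpoint over 10 kb from any protein-coding gene. Over all wide islands these shares were 48.1% and 22.3%. The 2 were at Mab21l1, a neural developmental gene that lies within Nbea (354 reads over 11600 bp, chr3:55771679-55783278), and at Setd1b and Rhof (340 reads over 10800 bp, chr5:123132192-123142991). Setd1b encodes a methyltransferase for lysine 4 of histone H3, and Rhof a small GTPase. The island over the start of Rhof ran 10362 bp upstream of it and 437 bp downstream, and overlapped Setd1b.

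Several of the largest of these islands stood in gene-poor DNA. The widest spanned 15800 bp with 469 reads (exact Poisson 95% interval 428 to 513), at chr4:81565897-81581696, 123 kb from the nearest gene end, that of Mpdz. Islands of 14600 bp each lay on chromosome 13, with 458 reads at the lncRNA gene Gm34196 and 447 at Gm17750, 427 and 155 kb from any coding gene end. One of 12400 bp and 447 reads overlapped the lncRNA gene Gm30905 on chromosome 9. One of 10200 bp and 278 reads overlapped Mir99ahg, the lncRNA that hosts microRNAs of the miR-99a and let-7c cluster. The second widest (15400 bp, 762 reads) held the most reads. It lay in 4930467E23Rik on chromosome 8 and overlapped its listed start, at 9.90 reads per 200 bp, one of the 11 above 8. The islands next in reads, on chromosomes X (558) and 8 (491), were also above 8, at 9.96 and 11.98. No comparison with the input was made at these islands.

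Transcripts without a protein product were overlapped too. A lncRNA gene was overlapped by 133 wide islands (26.2%, 22.6 to 30.2) and 898 narrower ones (17.3%, 16.3 to 18.4), against 18.1% over all, a measure that width favours. By midpoint the shares were 16.2% for wide islands (13.2 to 19.6) and 13.1% for narrower ones (12.2 to 14.1), against 13.4% over all. Malat1, a very abundant nuclear lncRNA, was overlapped by an island of 244 reads and 9.38 reads per 200 bp (chr19:5799401-5804600). Mir124a-1hg, the host transcript of a copy of the neuronal microRNA miR-124, had one of 189 reads over 6400 bp (chr14:64585764-64592163).

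MicroRNA genes themselves lay under 7 wide and 29 narrower islands (1.38% and 0.559%, against 0.632% over all), with 9 genes under wide and 33 under narrower islands. Width favours this measure too, and the intervals overlapped (0.670 to 2.82 for wide and 0.389 to 0.801 for narrower islands). The island in Aatk, a neuronal kinase gene (chr11:120009887-120015086, 133 reads over 5200 bp), held Mir338 and, on the opposite strand, Mir3065. Their mature sequences are given because the hairpins occupy the same place under this 1 island. Capitals mark the seed, bases 2 to 8.
mmu-miR-338-3p, chr11:120014781-120014802, minus strand: uCCAGCAUcagugauuuuguug
mmu-miR-338-5p, chr11:120014816-120014837, minus strand: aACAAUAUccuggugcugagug
mmu-miR-3065-5p, chr11:120014780-120014801, plus strand: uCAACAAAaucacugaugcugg
The 3 seeds differ, and the mature miR-338-3p and miR-3065-5p overlap on opposite strands. tRNA genes lay under 4 wide and 42 narrower islands (0.789% and 0.809%, against 0.808% over all), and snoRNA genes under 3 wide and 9 narrower islands (0.592% and 0.173%, against 0.211% over all). The intervals of both overlapped between wide and narrower islands.

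The wide islands reached 306 protein-coding genes with an end within 5 kb, or 1.41% of 21631 genes. Narrower islands alone reached 2506 (11.6%). Of the 306, 63 also had a narrower island there. Wide islands reached 0.617 genes each (exact Poisson interval 0.551 to 0.690) and narrower ones 0.531 (0.511 to 0.551). Any part of an island within 5 kb counted, so width favours this measure. Among islands that reached any gene, 24.2% of the wide (19.2 to 29.9) and 25.8% of the narrower (24.0 to 27.7) reached more than 1. The median length of genes reached was 21615 bp for wide islands, 26702 bp for narrower ones alone and 17329 bp over all genes.

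The wide island that reached the most genes lay in the histone cluster of chromosome 13 (chr13:21779332-21787331, 202 reads over 8000 bp), within 5 kb of H1f5, H3c11, H2ac22 and H2bc22. Another 8 reached 3 genes each. Among them were those at Prdx2, Junb and Rnaseh2a (172 reads), at Tubb5, Mdc1 and Flot1 (137 reads) and at Cfl1, Snx32 and Mus81 (128 reads). Tubb5 and Cfl1 encode a tubulin and the actin-severing protein cofilin, and Mdc1 and Mus81 act in DNA repair.

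Granule neuron progenitor genes had wide islands in 8 of 29 (27.6%, Wilson 95% interval 14.7 to 45.7), the highest share among 19 lists, and narrower islands alone in 13. Of all genes with an island under the cap within 5 kb, 10.9% had a wide one, and of the progenitor genes with an island 38.1% did. By that second measure the homeobox list (50%) and the Hedgehog list (41.7%) were higher. The lists were drawn up with earlier results of these data known, so these counts are a description. The member with the most reads was Nfia, of the nuclear factor I family, at 231 reads over 7200 bp (chr4:97580310-97587509). Barhl1 followed with 201 over 7200 bp (chr2:28912481-28919680) and the homeobox gene Meis1 with 192 over 6600 bp, then Zic5 with 156. Zic2, Pax6, Barhl2 and Sox4, which encode zinc-finger, paired, homeobox and HMG-box factors, had 143, 132, 131 and 112 reads. Atoh1 was not among the 8.

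Homeobox genes had wide islands in 9 of 45 (20%, 10.9 to 33.8) and narrower ones alone in 9, so 50% of those with an island had a wide one. Beside Barhl1, Barhl2, Meis1 and Pax6 they included Zeb1 (164 reads), Pou3f3 (163), Zeb2 (148) and Pou3f2 (117), regulators of neural development. The bHLH genes, a family that includes the proneural factors, had an island near an end in 22 of 37 and a wide one in 3 (8.11%, 2.80 to 21.3, against 1.41% over all genes), at Mxi1 (124 reads), Neurod1 (123) and Olig1 (102), the last also known from the oligodendrocyte lineage. Of those with an island 13.6% had a wide one, near the 10.9% over all genes with an island. Over all protein-coding genes, 2812 of 21631 had an island under the cap within 5 kb of an end. Sox, Zic and Nfi genes had wide islands in 4 of 21 and narrower ones alone in 10. These 4, Nfia, Zic5, Zic2 and Sox4, were also on the progenitor list, as were Barhl1, Barhl2, Meis1 and Pax6. The same genes are therefore counted in more than 1 list. The intervals of these lists overlapped.

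Hedgehog pathway genes had wide islands in 5 of 28 (17.9%, 7.88 to 35.6, against 1.41% over all genes) and narrower ones alone in 7. Of those with an island 41.7% had a wide one, against 10.9% over all genes with an island. The receptor gene Ptch1 had 159 reads over 5800 bp (chr13:63564893-63570692). Spop, an adaptor of the ubiquitin ligase that degrades Gli factors, had 153 reads over 5600 bp. Gli1 and the cyclin gene Ccnd1, both induced by the pathway, had 131 reads each, over 4200 and 4600 bp. Gas1, a co-receptor, had 123 over 4200 bp. Of the cell cycle list, wide islands reached 2 of 40 genes (5%, 1.38 to 16.5), or 16.7% of those with an island. These were Ccnd1 and the tumour suppressor Trp53 (114 reads over 4000 bp, the lowest width the rule allows).

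Genes of neuronal differentiation had wide islands in 4 of 31 (12.9%, 5.13 to 28.9), or 33.3% of those with an island. Over all genes 1.41% had one, and over all genes with an island 10.9%. The 4 were Sema6a (187 reads), a semaphorin that guides granule cell migration, Cbln1 (126), a synapse organiser released by granule cells, Neurod1, and Nlgn1 (98), a synaptic adhesion gene. Axon guidance and adhesion genes had them in 5 of 47 (10.6%, 4.63 to 22.6), or 35.7% of those with an island, led by the ephrin receptor gene Ephb2 (198). Sema6a and Nlgn1 were on both lists, and the other 2 were Sema6c (145) and Plxnb2 (135).

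Histone-modifying genes had wide islands in 5 of 45 (11.1%, 4.84 to 23.5), or 23.8% of those with an island. Over all genes 1.41% had one, and over all genes with an island 10.9%. The 5 were Setd1b, Kmt2e (254 reads over 7400 bp), a member of the family of lysine 4 methyltransferases, Brd2 (238 over 7600 bp), a reader of acetylated histones, Kdm6b (134), a demethylase of lysine 27, and Chd7 (105), a remodeller of another family. BAF and PBAF subunit genes had an island near an end in 14 of 30, with a wide one in 2, at Arid2 (129 reads) and Bcl11a (126). That was 14.3% of the 14, near the 10.9% over all genes with an island. Splicing and other RNA-processing genes had an island in 24 of 46, with a wide one in 4 (16.7% of the 24), Luc7l3 (165), Srsf3 (153), Hnrnpa2b1 (142) and Srsf6 (123). Over all protein-coding genes, 2812 of 21631 had an island under the cap within 5 kb of an end. Wnt pathway genes had wide islands in 2 of 37, Tle3 (149) and Axin2 (138).

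Cytoskeletal and housekeeping genes, many but not all of which are highly transcribed, had wide islands in 7 of 40 (17.5%, 8.75 to 32.0). That share was close to those of the homeobox and Hedgehog lists. Eef2 had 244 reads over 6600 bp, Actb 217 over 5800 bp, the tubulin genes Tuba1a, Tubb5 and Tubb2b 165, 137 and 123, Rpl4 130 and Cfl1 128. Of 50 ribosomal protein genes, which are highly transcribed, Rpl4 alone had a wide island (2%, 0.354 to 10.5), near the 1.41% over all protein-coding genes. None of the 84 markers of microglia and macrophages, vessels (endothelial and mural cells), oligodendrocytes, astrocytes with Bergmann glia, or liver and muscle had one, while 9 had a narrower one alone. Over all protein-coding genes these shares were 1.41% and 11.6%, so the counts for the markers were near those of genes at large. Over single lists the upper Wilson bound of these counts of 0 was 15.5 to 20.4%. Over the other 14 lists 48 of 480 distinct genes (10%) had a wide island.

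**Figure D4:**
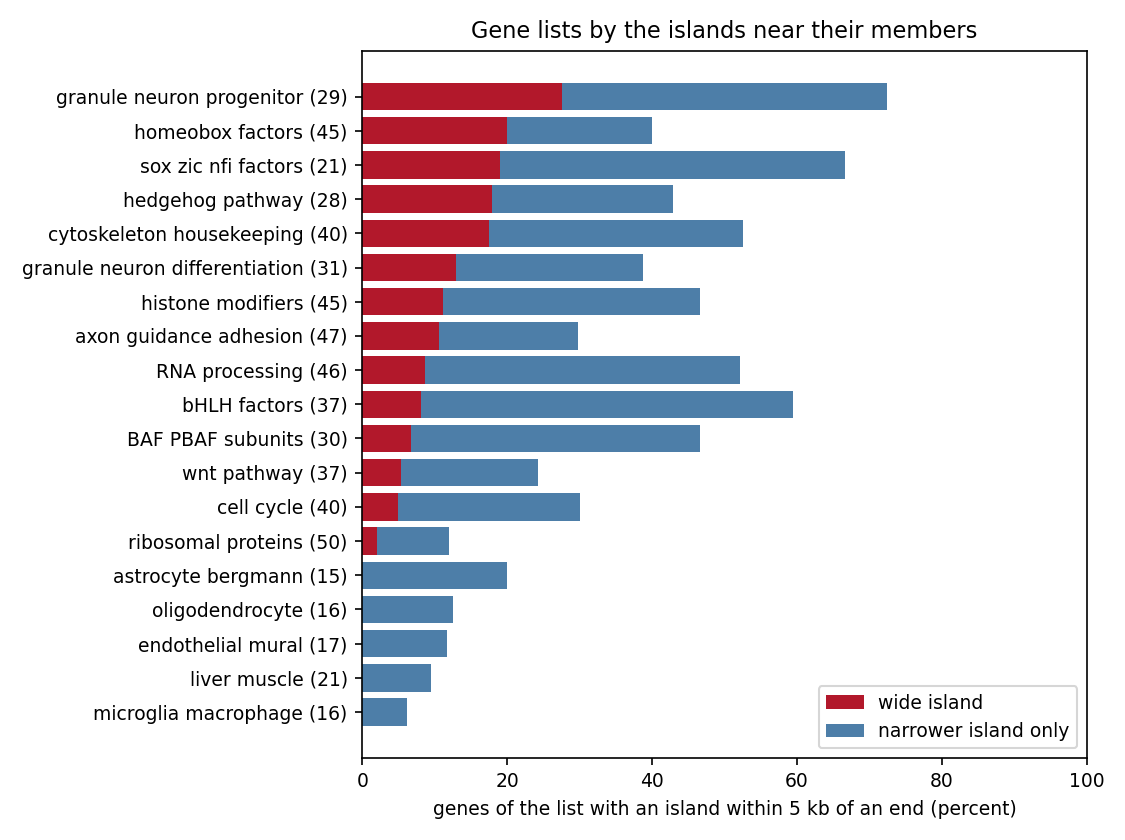
Share of the genes of each list (percent, number of genes in brackets) with a wide island, or with a narrower island only, within 5 kb of an end. Granule neuron progenitor genes have the highest share with a wide island (27.6%). The 5 lists of other cell types and tissues have 0, and the share over all protein-coding genes is 1.41%.

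Wide islands lay near other islands more often than narrower ones did. Another island of the list was found within 20 kb of 203 wide islands (40.04%, 35.9 to 44.4) and 1374 narrower ones (26.5%, 25.3 to 27.7), against 27.7% over all. The median distance between midpoints to the nearest island was 32.9 kb for wide and 61.6 kb for narrower islands. The share was 37.3% among wide islands under 5 kb, 40.7% among those of 5.0 to 5.8 kb and 49.4% among those of 6 kb or more. Distances between edges, which remove the part of the spacing that width itself adds, gave 43.6% for wide islands and were not computed for narrower ones.

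Some genes held several wide islands. Of 414 protein-coding genes with a wide island in the gene or 5 kb around it, 31 had more than 1 and 10 had 3 or more, and these 10 accounted for 37 of the 507. Lrba, a vesicle-trafficking gene of 559239 bp, and Map3k1, of 71842 bp, had 5 each, out of 15 and 8 islands under the cap. Cacna2d1, a calcium channel subunit gene, Nfia and Tcf4, a bHLH gene for an E protein, had 4 each, out of 10, 18 and 10. Clybl, Gse1, Meis1, Ralgapa2 and Zmiz1 had 3 each, and in Meis1 these were the only islands.

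In Map3k1 the wide islands held 117, 166, 230, 231 and 248 reads in order of coordinate (chr13:111747793-111811192). The 4 nearest the start formed a chain with gaps under 20 kb in which islands covered 28000 of 36000 bp (77.8%). The one with 248 reads overlapped a listed start, 7.08 to 13.5 kb from the 5′ end of the annotated gene. No other chain held as many wide islands. Beyond the gene towards higher coordinates, a further pair with 365 reads together (chr13:111923993-111938592) and the island of 302 reads at Gm15322 and Gm15323 (chr13:111996393-112003392) lay in DNA without coding genes.

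The other loci spread their wide islands more. In Nfia they held 231, 112, 159 and 211 reads and began 2.24, 21.8, 171 and 345 kb from the 5′ end. In Lrba they held 94, 121, 112, 154 and 137 reads and began 42.8, 220.4, 336, 521 and 534 kb from the 5′ end. In Cacna2d1 the one over the start held 195 reads, and the others, 50.1, 65.7 and 88.3 kb from it, held 133, 129 and 110. In Tcf4 the 4 held 103, 162, 148 and 181 reads, and 3 of them lay between 222 and 250 kb from the lower-coordinate end. Meis1 had islands of 173 and 110 reads at the 5′ end and before it, and one of 192 reads beyond the 3′ end. Zic5 had islands of 156 reads beyond its 3′ end and 116 reads across it, and an island of 143 reads near Zic2 joined them in a chain of 3 (chr14:122449379-122475178).

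**Figure D5:**
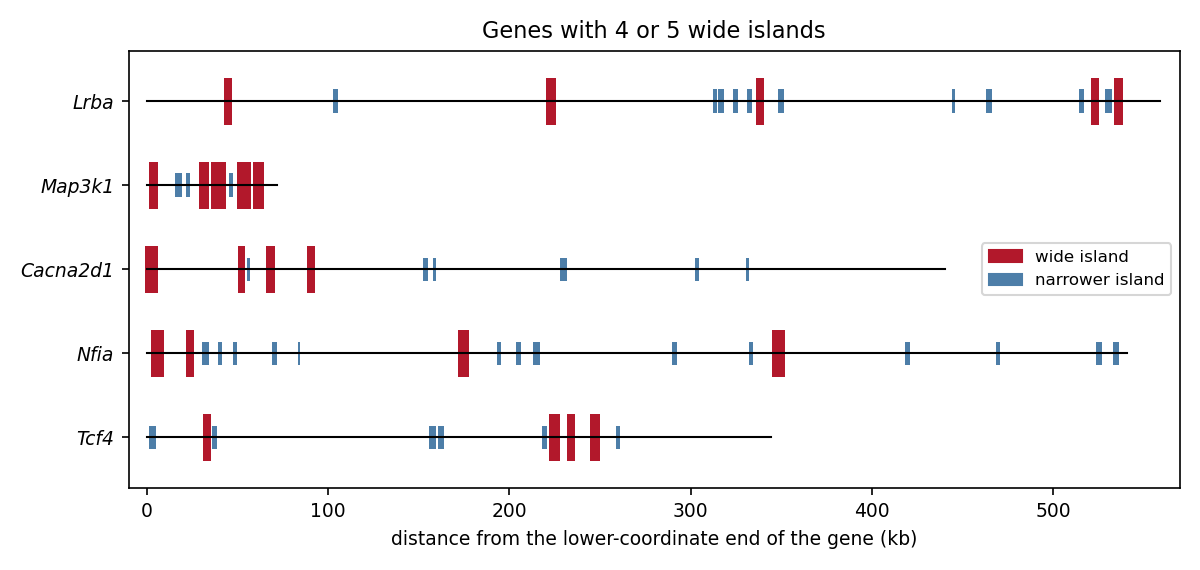
Islands under the density cap in the 5 genes with 4 or 5 wide islands, by distance in kb from the lower-coordinate end of the gene (black line, drawn to scale), with wide islands as tall and narrower ones as short bars. In Map3k1 the 5 wide islands fill much of a gene of 71842 bp, while in Lrba and Nfia they are spread over more than 300 kb.

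Chromosomes differed moderately in the share of their islands that was wide. It was highest on chromosomes 13 (38 of 276, 13.8%, 10.2 to 18.3) and 16 (23 of 170, 13.5%, 9.19 to 19.5), apart from X with 3 of 21 (14.3%, 4.98 to 34.6). It was lowest on chromosomes 12 (13 of 275, 4.73%, 2.78 to 7.92) and 6 (14 of 274, 5.11%, 3.07 to 8.39).

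Promoters under wide islands were rich in CpG, much as those under narrower ones. In the 300 bases from 250 before to 50 after the start, the median was 63.3% G and C (interquartile range 56.2 to 70.3) and 22 CpG (15 to 32) for 171 genes under wide islands. It was 64.7% (57.7 to 70.7) and 25 CpG (17 to 34) for 1359 genes under narrower islands alone, and 56.3% and 14 CpG over all 17274 genes with a promoter sequence. GGGCGG, the GC box bound by Sp1, was found on either strand in 68.4% under wide islands (61.1 to 74.9) and 71.7% under narrower ones (69.2 to 74.0), against 46.9% over all.

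TATAAA, the core of the TATA box that places the polymerase at some promoters, differed between the classes. It was found on either strand in 28 of 171 promoters under wide islands (16.4%, 11.6 to 22.6), in 79 of 1359 under narrower ones (5.81%, 4.69 to 7.19) and in 13.4% over all. So promoters under narrower islands had it less often than promoters at large, and those under wide islands about as often. By the widest island over the promoter, the share was 6.53%, 5.72%, 6.01% and 5.39% in the classes up to 1.4, 2.2, 3.0 and 3.8 kb. It was 10.8% at 4.0 to 4.8 kb (12 of 111), 17.6% at 5.0 to 5.8 kb (6 of 34) and 38.5% at 6 kb or more (10 of 26, 22.4 to 57.5). That last class also had the lowest median G and C of the width classes, 58.7%. Those 10 promoters lay under 7 islands, since 4 were the histone genes of chromosome 13. The others were those of Eef2, Rnd3, Ppp1r10, Chil4, Junb and Srsf3.

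Fewer of these matches sat at the usual place of a TATA box. On the strand of the gene and starting 40 to 15 bases before the start, a window chosen after seeing the data, TATAAA was found in 9 of 171 (5.26%, 2.79 to 9.70) under wide islands, 23 of 1359 (1.69%, 1.130 to 2.53) under narrower ones and 2.98% over all. The 9 were Chil4, Eef2, Fscn1, Gadd45g, H1f5, H2ac22, H2bu2, Rnd3 and Srsf3. Without histone genes, likewise chosen after seeing the data, the shares on either strand were 13.9% (9.47 to 20.05) under wide islands and 5.57% (4.46 to 6.92) under narrower ones, against 13.3% over all.

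The other motifs, searched on both strands, showed overlapping intervals between the classes. CCAAT was found in 43.9% under wide islands, 38.0% under narrower ones and 39.4% over all. The E-boxes CAGCTG and CAGATG were in 12.3% each under wide islands, 13.98% and 9.79% under narrower ones, and 15.3% and 14.6% over all. TGACGTCA, a CRE, was in 1.75% under wide islands, 3.97% under narrower ones and 2.37% over all. TGANTCA, an AP-1 site, was in 2.92% under wide islands, 4.42% under narrower ones and 7.14% over all. GACCACCCA, the letters of the Gli motif, was in none of the 171 under wide islands, in 6 of 1359 under narrower ones (0.442%) and in 0.179% over all, where a count of 0 allows up to 2.20% (Wilson upper bound). The palindromic Nfi motif was in none of 171 or of 1359 and in 0.0405% over all. A match describes letters in this window only.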

How the data were processed

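Brg1 binding was measured by ChIP-seq in 1 library of SmoM2 medulloblastoma. The authors deposited a list of islands with coordinates and a whole number each, taken from its values as the count of reads in the island, unscaled for depth. Per the submitters' processing notes, tools were SICER 1.1, Picard 1.127 and Bowtie 0.12.7, with mm10 and mm9 both listed as builds. How SICER was set (window, gap, threshold, input) is not given in the sources at hand, and gap and window bear on width. Library depth is unknown.

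Starts and ends were both raised by 1 to be 1-based on mm10, as windows are counted from 0. Genes and promoters were from RefSeq GRCm38.p6. All list symbols matched. Shares carry Wilson, and reads exact Poisson, 95% intervals. No test was run, since members were chosen by a measured width and density. Assignment was tested on simulated data. Python 3.11.15, pandas 2.3.3 and scipy 1.17.1 were used.

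The members and lists were chosen with earlier results of these data known. Genes named are those of the 15 wide islands with the most reads and the 5 widest, up to 4 members of each list by reads, the 5 islands that reach the most genes, genes with several wide islands, and islands at the thresholds. Some of these are left out for length. List members beyond 4, printed promoters and microRNAs, Mir99ahg, Malat1, Mir124a-1hg, Zic2, single starts and genes with TATAAA were chosen after their values were seen.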

Additional observations from a re-analysis of the deposited data

How the results depend on the processing

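Of 53 alternative values of the main results, 30 stayed within the counting interval, or within 1.5 times for counts, and 23 moved. The 30 include the number of wide islands (507) and of genes reached (306) after a filter on reads. That filter dropped islands with fewer reads than the median of the whole list, 68. Every wide island held at least 76 reads, so neither number could change and neither is a check. The number of wide islands was 1529 with a minimum of 3000 bp and 191 with 5000 bp. The genes reached were then 880 and 108, the list members reached 94 and 21, and the share with another island within 20 kb 33.6% and 44.5%. At 5000 bp the midpoint share at gene ends was 11.0%, the share touching a 1 kb window 33.0%, and the promoter medians 60.2% GC and 20 CpG. The midpoint share was 8.68% within 500 bp, 29.4% within 2 kb and 25.4% with all annotated genes. The share touching was 33.5% at the gene end itself and 48.1% within 5 kb. The share over a start was 18.5% by midpoint. Genes per island were 0.465 within 1 kb, 0.769 within 10 kb and 1.06 with all annotated genes. A neighbour lay within 10 kb of 24.3% and within 50 kb of 59.96%. Removing the density cap, or lowering it to 8, moved none of the values tried. Of 95 alternative counts for single lists, 27 moved. The causes were not tested. No paired analysis was possible because there was 1 ChIP library. The input was not analysed here and replicate error is unknown, so the difference between wide and narrower islands has no check in another tumour.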
